A study of Homo sapiens with 9 samples.

Results

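Antisense long noncoding RNA (lncRNA) loci are genes named after the gene on the other strand, with the ending -AS and a number. They were taken as the rows of the gene count table with the gene type lncRNA and such a name, which gave 1777 loci of 62703 genes in the table and of 5658 lncRNA rows. The choice used names and gene types alone and no measured value. Each locus was compared with its partner, the gene whose symbol stands before -AS, and 1758 loci had a partner in the table, 1599 different genes in all. A further 13 rows with such a name but another gene type were set aside.

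The cells were HK-2, a line of human kidney tubule epithelium transformed with human papillomavirus 16, and RNA was sequenced in 3 groups of 3 libraries. Untreated cells (libraries 1, 2 and 3) had the genotype WT. Cells of the aristolochic acid group (libraries 1, 4 and 6) were also WT and received 5 µg/ml aristolochic acid, a plant toxin that damages DNA in kidney tubules, for 48 h. Cells of the MYDGF group (libraries 1, 3 and 4) received aristolochic acid and overexpressed MYDGF, a secreted growth factor, from an adenovirus built on the vector GV314. Medium with 5% serum and serum starvation for 12 h are stated for all 9 libraries, while a control virus, a vehicle or a matched time for the untreated cells is not stated. The treatment text of untreated 2 and 3 and of MYDGF 3 and 4 reads HK-3 or HK-4, and all 9 were used as HK-2, as their cell line label says. No label says that libraries came from separate cultures, so every p-value measures only the spread between these samples.

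Antisense lncRNAs are transcribed across, beside or into a gene on the opposite strand. Head-to-head pairs share a promoter region that fires in both directions, and many such antisense RNAs are short-lived because the nuclear exosome, an RNA-degrading complex, clears them soon after they are made. Others start inside the partner gene or run into its 3′ end, and a few, such as CDKN2B-AS1 (ANRIL) at the INK4 locus and OIP5-AS1 (cyrano), are studied as regulators in their own right.

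The promoters below are those of the 8 loci that rose most and the 8 that fell most with aristolochic acid, as far as a RefSeq start (GRCh38.p14) lay within 100 bases of the start in the table. They are shown because the number of CpG dinucleotides in the promoter is compared between loci that rose and loci that fell. Each runs 5′ to 3′ on the strand of the antisense gene from 250 bases before to 50 bases after the RefSeq start, and capitals mark CpG. The 4 loci that rose were PITRM1-AS1 (chr10:3141351-3141650, plus strand, 4 CpG), IDI2-AS1 (chr10:1022387-1022686, plus strand, 6 CpG), PROSER2-AS1 (chr10:11894661-11894960, minus strand, 17 CpG) and IQSEC3-AS1 (chr12:182359-182658, minus strand, 9 CpG).
PITRM1-AS1: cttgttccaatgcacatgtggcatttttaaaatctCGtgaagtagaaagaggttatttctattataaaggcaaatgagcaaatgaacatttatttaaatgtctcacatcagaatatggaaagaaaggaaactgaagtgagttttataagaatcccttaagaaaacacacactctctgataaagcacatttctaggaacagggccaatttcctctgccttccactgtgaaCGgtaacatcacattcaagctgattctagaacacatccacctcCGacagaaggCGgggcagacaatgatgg
IDI2-AS1: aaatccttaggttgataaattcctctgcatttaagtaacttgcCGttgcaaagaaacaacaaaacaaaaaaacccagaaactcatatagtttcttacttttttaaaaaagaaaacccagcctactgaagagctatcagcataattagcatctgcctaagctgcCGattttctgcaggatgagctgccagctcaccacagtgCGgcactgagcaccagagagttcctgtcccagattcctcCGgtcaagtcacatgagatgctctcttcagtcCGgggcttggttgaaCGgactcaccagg
PROSER2-AS1: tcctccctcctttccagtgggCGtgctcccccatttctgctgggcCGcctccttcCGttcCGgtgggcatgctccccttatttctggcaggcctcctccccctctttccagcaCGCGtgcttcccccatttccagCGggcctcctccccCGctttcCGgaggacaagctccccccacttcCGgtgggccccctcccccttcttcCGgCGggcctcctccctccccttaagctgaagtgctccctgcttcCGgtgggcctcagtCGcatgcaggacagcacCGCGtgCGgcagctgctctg
IQSEC3-AS1: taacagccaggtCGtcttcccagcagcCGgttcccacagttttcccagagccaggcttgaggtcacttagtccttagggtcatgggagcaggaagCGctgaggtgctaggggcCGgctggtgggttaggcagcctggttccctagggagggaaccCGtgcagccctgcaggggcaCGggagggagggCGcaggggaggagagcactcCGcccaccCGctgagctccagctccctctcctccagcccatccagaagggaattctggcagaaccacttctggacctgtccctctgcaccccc
The 4 loci that fell were TNS2-AS1 (chr12:53054389-53054688, minus strand, 20 CpG), PAXBP1-AS1 (chr21:32727864-32728163, plus strand, 35 CpG), PAK6-AS1 (chr15:40252910-40253209, minus strand, 27 CpG) and STPG3-AS1 (chr9:137253448-137253747, minus strand, 8 CpG).
TNS2-AS1: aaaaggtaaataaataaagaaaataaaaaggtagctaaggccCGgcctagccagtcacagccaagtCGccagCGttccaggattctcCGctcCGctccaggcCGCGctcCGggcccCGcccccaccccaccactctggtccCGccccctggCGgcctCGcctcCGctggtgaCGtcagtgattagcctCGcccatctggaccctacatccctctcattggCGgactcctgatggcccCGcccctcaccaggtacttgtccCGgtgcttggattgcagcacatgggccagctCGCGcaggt
PAXBP1-AS1: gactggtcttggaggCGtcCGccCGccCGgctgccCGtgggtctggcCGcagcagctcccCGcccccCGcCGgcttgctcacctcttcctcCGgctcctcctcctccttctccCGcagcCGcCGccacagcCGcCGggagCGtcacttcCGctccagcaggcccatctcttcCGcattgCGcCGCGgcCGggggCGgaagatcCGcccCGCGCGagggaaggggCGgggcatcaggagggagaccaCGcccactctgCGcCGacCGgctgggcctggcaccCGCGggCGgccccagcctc
PAK6-AS1: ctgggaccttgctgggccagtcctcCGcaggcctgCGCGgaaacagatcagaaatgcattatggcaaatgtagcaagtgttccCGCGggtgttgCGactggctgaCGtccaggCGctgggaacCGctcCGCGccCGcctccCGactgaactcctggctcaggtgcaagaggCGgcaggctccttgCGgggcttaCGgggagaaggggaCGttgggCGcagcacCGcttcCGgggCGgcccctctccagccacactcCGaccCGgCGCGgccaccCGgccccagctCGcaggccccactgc
STPG3-AS1: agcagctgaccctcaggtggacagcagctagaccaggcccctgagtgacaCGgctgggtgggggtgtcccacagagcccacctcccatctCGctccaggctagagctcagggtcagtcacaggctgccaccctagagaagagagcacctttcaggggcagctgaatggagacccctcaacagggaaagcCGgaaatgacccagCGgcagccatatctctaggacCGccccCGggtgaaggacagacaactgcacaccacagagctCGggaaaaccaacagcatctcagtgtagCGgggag
TATAAA, searched on both strands, was found in the promoter of PITRM1-AS1 alone among these 8, and CCAAT in those of PITRM1-AS1 and TNS2-AS1. GGGCGG, the core of the GC box, which itself contains a CpG, was found in IQSEC3-AS1 and in all 4 loci that fell. Over all 35116 RefSeq promoters of this length, 11.5% held TATAAA, 34.6% CCAAT and 45.0% GGGCGG.

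Most antisense loci were weakly expressed. No read was counted for 587 of the 1777 loci in any library, 716 had counts but too few for the test, and 474 were tested (a minimum count of 10 by the filter of edgeR, in a number of libraries that matches the smallest group). A locus that passed the filter only through the group in which it was high had to differ, so counts over the 474 tested loci are a description of those loci and not of all antisense loci. The loci together took 0.257 to 0.289% of the counts of an untreated library, 0.294 to 0.322% in the aristolochic acid group and 0.289 to 0.303% in the MYDGF group. Between 783 and 812 loci had a count in untreated libraries, 850 to 927 in the aristolochic acid group and 875 to 892 in the MYDGF group. On this count all treated libraries lay above all untreated ones, and aristolochic acid 4 was the highest.

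Total counts per library ran from 10876572 to 14254786. MYDGF mRNA stood at 123 to 131 CPM (counts per 1000000, scaled with TMM) in untreated cells, 74.2 to 105 in the aristolochic acid group and 510 to 663 in the MYDGF group. The epithelial keratins KRT8 and KRT18 averaged 580 and 372 CPM in untreated cells, whereas the kidney lineage factors PAX8 and PAX2 averaged 0.456 and 0.344 CPM. Of the proximal tubule markers, CUBN, AQP1, ANPEP and GGT1 averaged 1.24 to 4.58 CPM in untreated cells, LRP2 averaged 0.0504 CPM and SLC34A1 had no count there. Of the leukocyte markers CD3E had no count, PTPRC averaged 0.0252 CPM and CD14 2.38 CPM in untreated cells. Of the podocyte and distal nephron markers UMOD had no count and NPHS1 averaged 3.01 CPM untreated and 7.31 with aristolochic acid. The fibroblast markers COL1A1 and PDGFRB averaged 10.4 and 0.903 CPM untreated, and the endothelial marker PECAM1 averaged 0.584 CPM untreated, 7.92 with aristolochic acid and 2.12 with MYDGF. The part of these markers in the results was not tested. In bulk RNA, fewer cells of a kind and less RNA per cell cannot be told apart.

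With aristolochic acid, 117 antisense loci rose and 135 fell against untreated cells (edgeR quasi-likelihood test, Benjamini-Hochberg adjusted p under 0.05 over 18267 genes). These were 24.7% and 28.5% of the 474 tested loci, beside 29.7% of all tested genes called higher and 29.3% called lower, so neither share exceeded that of all genes. The median log2 fold change of the tested loci was -0.12, against -0.01 over all tested genes. Of the calls, 83 rises and 88 falls were at least 2-fold, beside 2620 rises and 2004 falls of the 18267 genes. At this threshold both shares were larger than those of all genes. Among the other lncRNA rows, 283 rose and 204 fell of 862 tested, with a median of 0.16. There, 205 rises and 117 falls were at least 2-fold, which are also larger shares than those of all genes. The larger share of 2-fold changes was therefore not particular to antisense loci.

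The 8 loci with the largest rises, among those with a mean of at least 1 CPM in the higher group, stood at 0.671 CPM or less in every untreated library. This is under the minimum count of 10, so all 8 passed the filter only through treated libraries. Their fold changes, p-values and positions are a description of loci let into the test in this way. UCKL1-AS1 (ENSG00000280213, chr20:63953384-63956985, plus strand) lies antisense to UCKL1, a uridine-cytidine kinase-like gene. Its level was 0.317, 0.671 and 0.303 CPM in untreated libraries, 41.1, 72.0 and 70.7 CPM in the aristolochic acid group and 26.4, 17.3 and 23.5 CPM with MYDGF. None of these groups overlapped, and the rise over untreated cells was 7.14 on the log2 scale (SE 0.372, edgeR adjusted p = 3.83e-06).
RUFY1-AS1 (ENSG00000244945, chr5:179595904-179603741, minus strand), antisense to the endosomal adaptor gene RUFY1, stood at 0.0792, 0.587 and 0.303 CPM untreated, 15.1, 26.9 and 23.8 in the aristolochic acid group and 6.82, 3.36 and 5.44 with MYDGF. Its log2 fold change with aristolochic acid was 6.06 (SE 0.473, edgeR adjusted p = 1.31e-05), and 6.74 without untreated 2, the highest untreated library.
PITRM1-AS1 (ENSG00000237399, chr10:3141632-3167972, plus strand), antisense to the mitochondrial peptidase gene PITRM1, stood at 0.555, 0.587 and 0.454 CPM untreated, 3.72, 46.1 and 30.5 in the aristolochic acid group and 7.89, 4.68 and 6.01 with MYDGF. The aristolochic acid libraries were far apart here, library 1 being the lowest. The log2 fold change was 5.63 (SE 0.906, edgeR adjusted p = 0.000585), and 4.98 without aristolochic acid 4.

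IDI2-AS1 (ENSG00000232656, chr10:1022618-1045425, plus strand) lies antisense to IDI2, an isopentenyl-diphosphate isomerase gene. It had 0.158, 0.252 and 0.151 CPM untreated and 7.85, 10.4 and 10.3 with aristolochic acid, a log2 fold change of 5.60 (edgeR adjusted p = 6.30e-06), while IDI2 itself had no count in either group. MTUS2-AS1 (ENSG00000179141, chr13:29476515-29490105, minus strand) went from 0.158, 0 and 0.151 to 2.75, 8.04 and 5.61 CPM, a log2 fold change of 5.57 (edgeR adjusted p = 0.000105). The other 3 had at most 3 counts over the untreated libraries, so a ratio of CPM with a 95% interval, or a lower bound, replaces the fitted fold change. Those intervals cover counting error only.
FAM83A-AS1 (ENSG00000204949, chr8:123193645-123202743, minus strand) had 2 counts untreated and 1.86, 5.41 and 5.43 CPM under aristolochic acid, a ratio of 79.3 (95% interval 21.6 to 661). PROSER2-AS1 (ENSG00000225778, chr10:11849608-11894700, minus strand) had 3 counts untreated and 1.78, 3.86 and 3.77 CPM under aristolochic acid, a ratio of 39.3 (95% interval 13.1 to 194). IQSEC3-AS1 (ENSG00000256540, chr12:166856-182399, minus strand) had no count in untreated cells and 0.810, 1.16 and 1.56 CPM under aristolochic acid, at least 14.6-fold higher than the floor of 3 counts over the untreated group. Without untreated 2 FAM83A-AS1 had no untreated count, and without untreated 3 the fitted log2 fold change of PROSER2-AS1 was 5.96 in place of 5.14. Among the 3 aristolochic acid libraries, library 1 was the lowest for each of these 8 loci.

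The 8 loci with the largest falls dropped by 2.83 to 4.29 on the log2 scale. PCF11-AS1 (ENSG00000269939, chr11:83185521-83187036, minus strand) lies wholly over exons of PCF11, a factor that ends transcription at polyadenylation sites. Its level was 2.30, 2.60 and 2.12 CPM untreated and 0.162, 0.155 and 0 CPM under aristolochic acid, a log2 fold change of -4.29 (SE 0.550, edgeR adjusted p = 0.000161). TNS2-AS1 (ENSG00000257337, chr12:53012884-53054450, minus strand), antisense to the focal adhesion gene TNS2, was the most abundant of the 8. Its level was 15.5, 7.63 and 14.9 CPM untreated, 1.30, 1.0 and 2.21 in the aristolochic acid group and 2.30, 5.39 and 5.02 with MYDGF, and none of the groups overlapped. Its log2 fold change with aristolochic acid was -3.09 (SE 0.427, edgeR adjusted p = 0.000244). ASMTL-AS1 (ENSG00000236017, chrX:1401769-1414028, plus strand) went from 6.42, 4.70 and 4.39 to 0.810, 0.773 and 0.552 CPM, a log2 fold change of -2.83 with the smallest adjusted p of the 8 (edgeR, 2.50e-05).
PAK6-AS1 (ENSG00000176753, chr15:40250664-40252969, minus strand), antisense to a p21-activated kinase gene, stood at 1.58, 1.85 and 0.605 CPM untreated and 0.243, 0.0773 and 0.0920 with aristolochic acid. Its log2 fold change was -3.18 (edgeR adjusted p = 0.00179), and -3.83 without aristolochic acid 1. PAXBP1-AS1 (ENSG00000238197, chr21:32728094-32747065, plus strand) went from 3.65, 2.52 and 2.12 to 0.324, 0.386 and 0.184 CPM (log2 fold change -3.15). In NINJ2-AS1 (-3.06) and STPG3-AS1 (-2.92) the untreated and aristolochic acid libraries did not overlap either. The adjusted p of these 3 ran from 9.10e-05 to 0.000630 (edgeR).

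**Figure D1:**
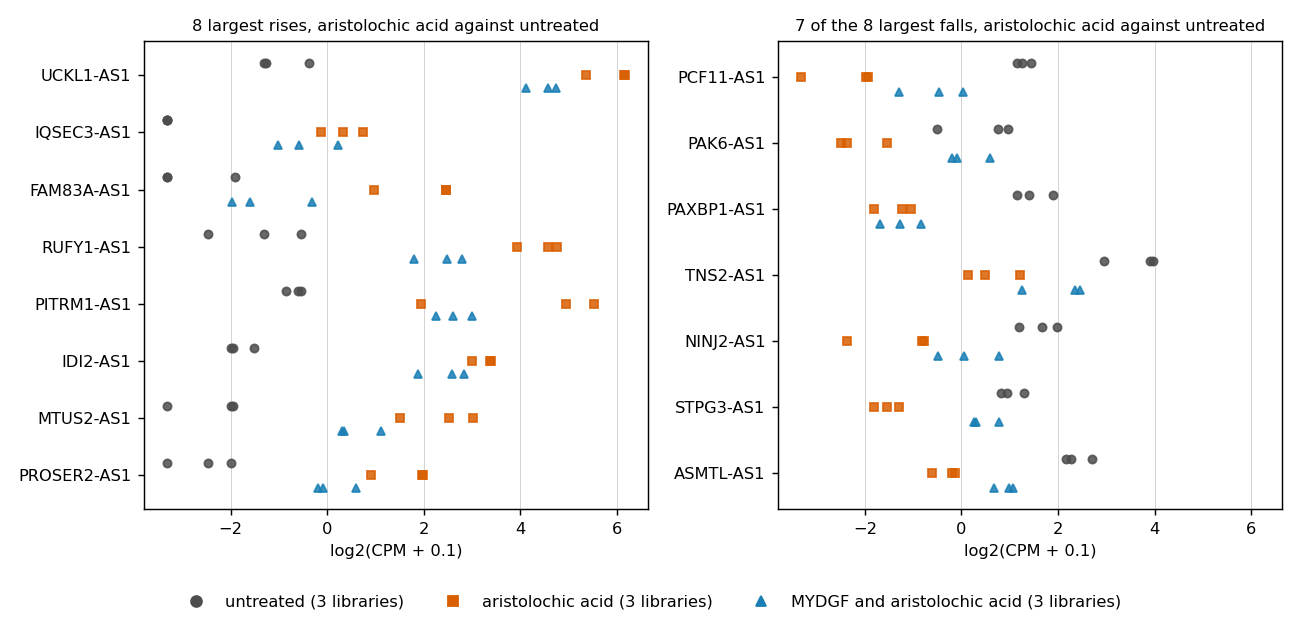
Level of the 8 antisense loci with the largest rises (left) and 7 of the 8 with the largest falls (right) with aristolochic acid, as log2(CPM + 0.1). Each point is 1 of 3 libraries per group; the aristolochic acid libraries do not overlap the untreated ones in any of these loci, and the MYDGF libraries of UCKL1-AS1 and TNS2-AS1 sit between them.

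The loci were then sorted by where they lie relative to their partner, from coordinates and strand alone. Head-to-head loci, whose start is within 2 kb of the start of the partner on the other strand, numbered 468 (193 tested). Loci that start inside the partner numbered 929 (127 tested), and those that reach into it from its 3′ side 323 (139 tested). The rest were 20 loci without overlap, 9 on the same strand, 19 without a partner in the table, HOX cluster loci among them, and 9 without a strand in the annotation used.
Of 193 tested head-to-head loci, 40 were called higher (20.7%) and 59 lower (30.6%) with aristolochic acid, beside 29.7% and 29.3% of all tested genes, with a median log2 fold change of -0.25. Loci starting inside the partner had 38 rises and 36 falls of 127 (29.9% and 28.3%) and a median of 0.04, and loci reaching in from the 3′ side had 38 and 34 of 139 (27.3% and 24.5%) and a median of -0.03. With a limit of 1 kb for head-to-head starts, 24 rises were left in that class in place of 40. Among loci starting inside the partner, DESeq2 called 67 rises and the same edgeR test without a filter on low counts 71, in place of 38. The largest rises lay outside the head-to-head class: 6 of the 8 started inside the partner and 2 reached in from the 3′ side.

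**Figure D2:**
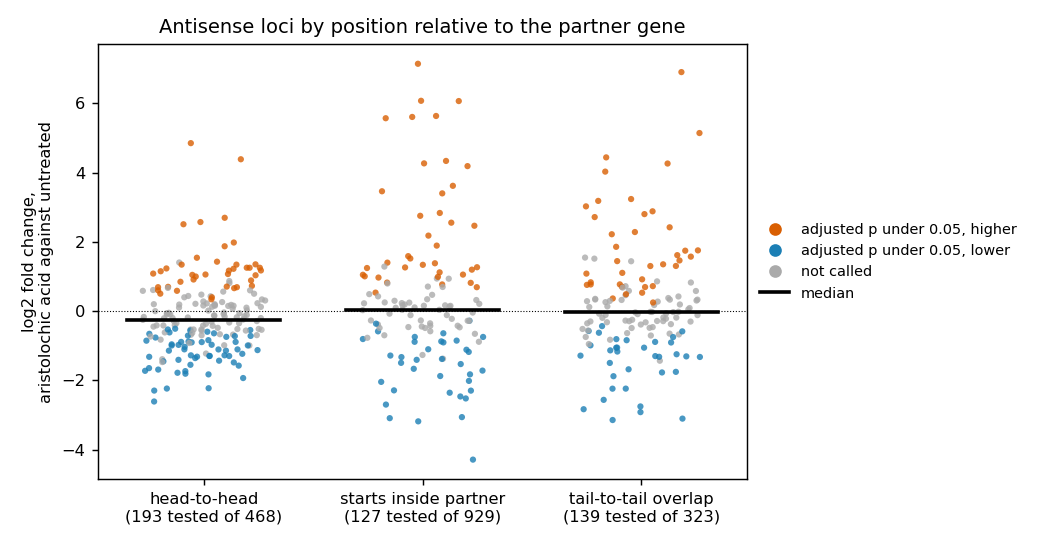
Log2 fold change with aristolochic acid against untreated cells for the tested antisense loci of the 3 main position classes; each point is 1 locus, coloured by its call, and the black bar is the class median. The medians are -0.25, 0.04 and -0.03, and all 8 rises above 5 are in the classes that start inside or reach into the partner.

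The position classes were also summed over all their loci, tested or not, with no test of the difference between classes. The 468 head-to-head loci had 1037 to 1104 CPM untreated, 1039 to 1089 in the aristolochic acid group and 1136 to 1187 in the MYDGF group. The untreated and aristolochic acid libraries overlapped, and the MYDGF libraries lay above both. The loci that start inside the partner summed to 546 to 575, 601 to 811 and 591 to 621 CPM. Both treated groups thus lay above the untreated one (exact permutation test, 2-sided, p = 0.1 for aristolochic acid against untreated, which is the smallest value that 3 against 3 libraries allow). This held without DLGAP1-AS2, the most abundant locus of the class. Without UCKL1-AS1, a choice made after seeing the data, both treated groups overlapped the untreated one.

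The most abundant head-to-head locus was THAP9-AS1 (ENSG00000251022, chr4:82893009-82900960, minus strand), beside the gene of a THAP domain transposase relative. Its level was 51.2, 54.9 and 50.2 CPM untreated, 92.6, 104 and 97.8 in the aristolochic acid group and 104, 103 and 101 with MYDGF. It rose by 0.91 on the log2 scale (SE 0.0672, edgeR adjusted p = 1.03e-05), while the 2 treated groups overlapped. WARS2-AS1 (ENSG00000231365, chr1:119140391-119275973, plus strand), beside the gene of the mitochondrial tryptophanyl-tRNA synthetase, stood at 37.3, 32.6 and 32.8 CPM untreated, 70.6, 84.6 and 75.8 in the aristolochic acid group and 63.6, 55.0 and 53.5 with MYDGF. It rose by 1.17 (SE 0.102, edgeR adjusted p = 2.11e-05), and WARS2 itself had a log2 fold change of -0.07 (adjusted p = 0.691). Of the loci that start inside the partner, the 3 most abundant were DLGAP1-AS2 (44.5, 40.6 and 37.2 CPM untreated and 55.2, 69.5 and 52.1 with aristolochic acid), SDCBP2-AS1 (26.4, 24.3 and 25.3 and 49.3, 60.4 and 47.9) and UCKL1-AS1. The first 2 rose by 0.53 and 1.05 (edgeR adjusted p = 0.00423 and 4.02e-05).

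Most of the 8 loci that rose most lay close behind an active gene on their own strand. An active gene is one with a mean of at least 5 CPM in untreated cells, and the distance runs from its 3′ end to the start of the antisense locus. UCKL1-AS1 starts 17.4 kb past DNAJC5, RUFY1-AS1 10.4 kb past HNRNPH1, PITRM1-AS1 3.91 kb past PFKP and IDI2-AS1 2.69 kb past GTPBP4. FAM83A-AS1, MTUS2-AS1 and PROSER2-AS1 start 17.2 kb past C8orf76, 19.3 kb past SLC7A1 and 25.3 kb past UPF2. Thus 7 of the 8 lay within 30 kb, a distance chosen after the values were seen, against 1 of the 8 largest falls (TNS2-AS1). The genes in front of the 8 loci themselves moved by -0.01 to 0.93 on the log2 scale (median 0.24, 4 called higher), next to rises of 5.57 to 7.14 for the 5 loci with more than 3 untreated counts.
Over all loci with a known strand, 252 of 1768 (14.3%) lay within 30 kb of an active gene in front of them. The share was 40 of 82 (48.8%) among rises of at least 2-fold, 41 of 221 (18.6%) among tested loci without a call and 10 of 88 (11.4%) among falls of at least 2-fold. For the 40 rises near an active gene, the gene in front had a median log2 fold change of 0.28, with 20 called higher and 7 lower, and the loci themselves a fitted median of 2.49. The median untreated level was 0.853 CPM for these 82 rises, 2.01 CPM for loci without a call and 3.40 CPM for the 88 falls. Of the 82 rises, 16 had an untreated mean under 0.2 CPM and passed the filter only through a treated group. Any other locus under the minimum count of 10 in an untreated library also needed treated libraries to pass. The number of such loci among the 82 was not counted, so 16 is a lower limit. The rises thus include loci let into the test by the group in which they were high. These shares describe the loci called in this comparison and carry no test, and no conclusion on position is drawn from the contrast.

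Loci that were near silent before treatment, with a mean under 0.2 CPM in untreated cells, numbered 1144, of which 16 passed the filter of the test. Because they were chosen for low untreated values, a higher level with treatment is in part set by the choice, and the comparison here is between near-silent loci at different positions. The 308 that start within 100 kb past an active gene on their strand together had 8.64 to 9.91 CPM untreated, 53.8 to 102 in the aristolochic acid group and 31.1 to 41.2 in the MYDGF group. The 830 at other positions summed to 13.2 to 16.1, 28.5 to 43.0 and 30.3 to 34.7 CPM. None of the 3 groups overlapped in the first set, whereas the treated groups overlapped in the second. The highest locus of the first set was IDI2-AS1, and without it, a choice made after seeing the data, the sums were 8.39 to 9.76, 46.0 to 91.6 and 25.3 to 37.1 CPM. The 16 tested loci could pass the filter only through a treated group and all were called higher, so no share of calls is read from them. The order by position was not particular to antisense loci. Of near-silent other lncRNA rows, 47 of 488 within 100 kb past an active gene and 8 of 2141 elsewhere rose at least 2-fold. These counts were 24 of 624 and 1 of 999 for rows described as antisense without an antisense symbol. For the loci here they were 10 of 308 and 6 of 830. All rest on the filter in the same way.

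**Figure D3:**
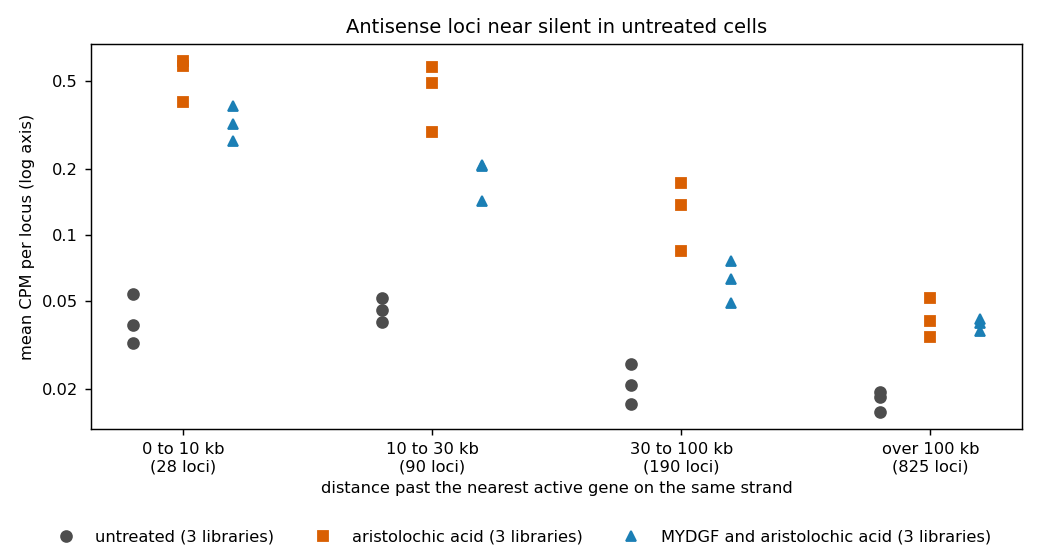
Mean level per locus, as CPM on a log axis, of antisense loci near silent in untreated cells, by the distance from the nearest active gene in front of them on the same strand; each point is 1 of 3 libraries per group and n is the number of loci. With aristolochic acid the 28 loci within 10 kb summed to 11.3 to 17.2 CPM against 0.908 to 1.51 CPM untreated (3.40 to 6.80 against 0.757 to 1.35 CPM without IDI2-AS1, the highest of them), while the 825 loci over 100 kb away summed to 28.5 to 42.6 against 13 to 15.9 CPM.

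Promoters of the loci that rose held fewer CpG than those of the loci that fell. A RefSeq promoter was matched by symbol for 1242 loci. The median CpG count in 300 bases was 16 for 59 loci that rose at least 2-fold, 27 for 63 that fell at least 2-fold and 22.5 for 170 tested loci without a call, beside 14 over all RefSeq promoters. GGGCGG was present in 39.0%, 79.4% and 61.8% of these promoters. Without near-silent loci, the 50 that rose had a median of 19 CpG and 38.0% held GGGCGG. Position moved with this feature: the median was 22 CpG for head-to-head loci, 5 for loci starting inside the partner and 18 for those reaching in from the 3′ side. Within the head-to-head class, the loci called higher had a median of 22 CpG (35 promoters) and those called lower 27 (50 promoters). Among the loci starting inside the partner the medians were 8 (27 promoters) and 22 (23 promoters). The 50 rises without near-silent loci still include some, such as PITRM1-AS1, that passed the filter only through treated libraries. Untreated level moved with CpG as well, with a median of 5 for the other 750 near-silent loci. The contrast between rises and falls therefore cannot be told apart from how loci entered the test. The part of promoter composition in the changes was not tested, and RefSeq starts were not required to lie near the start in the table.

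**Figure D4:**
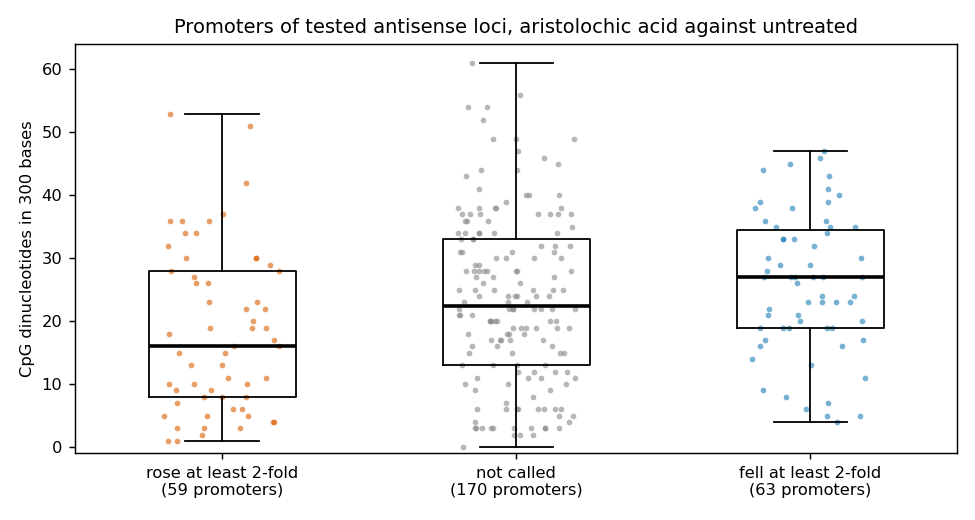
CpG dinucleotides in the 300-base RefSeq promoter of tested antisense loci, grouped by their call with aristolochic acid against untreated cells. Boxes span the quartiles with the median as a bar, whiskers reach the farthest value within 1.5 times the quartile range, and each point is 1 promoter; the medians are 16, 22.5 and 27.

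Next, each antisense locus was set beside its partner. Both genes were tested in 407 pairs with 402 different partners. Whether the counting used the strand of a read is not stated in the labels or processing notes used here, so where exons overlap, reads of an antisense locus and of its partner cannot be told apart. At least 1 exonic base lay over an exon of the other strand in 1112 of the 1768 loci with a strand (median 16.7% of the exonic bases of those loci), and 656 had no such overlap. With aristolochic acid, both genes rose in 31 pairs and both fell in 35. The antisense locus rose and the partner fell in 33, and the reverse held in 43. Only the antisense locus was called in 79 pairs, only the partner in 98 and neither in 88.
Across the 407 pairs the log2 fold changes had a Pearson r of -0.16 (Spearman rho -0.08). This is a description over gene pairs that share the same 6 libraries, with no p. Over 112 pairs in which the locus starts inside the partner, r was -0.34 (rho -0.30), over 186 head-to-head pairs it was -0.10 (rho 0.09), and over 103 pairs in which the locus reaches in from the 3′ side it was 0.00 (rho -0.02). Exon overlap moved with r in each class in this comparison. Of the head-to-head pairs, r was -0.20 (rho 0.03) over the 141 with exon overlap and 0.33 (rho 0.33) over the 45 without. Over the 159 head-to-head pairs in which both genes had at least 1 CPM untreated, r was 0.03 (rho 0.10). Of the pairs reaching in from the 3′ side, r was -0.04 (rho -0.08) over 83 with exon overlap and 0.35 (rho 0.41) over 20 without. Of the pairs starting inside the partner, r was -0.38 (rho -0.34) over the 92 with exon overlap and -0.09 (rho -0.19) over the 20 without. It was -0.17 (rho -0.21) over the 75 of them in which both genes had at least 1 CPM untreated. For 3944 other gene pairs on opposite strands, head-to-head or overlapping, r was -0.07. With MYDGF against aristolochic acid, the pairs starting inside the partner had r of -0.42 (rho -0.35) with exon overlap and -0.44 (rho -0.24) without (112 pairs, r -0.42). There, r was 0.04 with exon overlap and 0.07 without for head-to-head pairs, and -0.01 and 0.16 for pairs reaching in from the 3′ side. The part of exon overlap in r was not tested.

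The log2 ratio of antisense to partner, log2((antisense CPM + 0.1)/(partner CPM + 0.1)), was computed in each library. With aristolochic acid it lay above all untreated libraries in 113 pairs (27.8%) and below them in 132 (32.4%). In the 3944 other opposite-strand pairs, with the weaker gene in the place of the antisense locus, these shares were 27.8% and 35.5%. Among pairs that start inside the partner, the ratio was higher without overlap in 42 of 112 (37.5%) and lower in 34 (30.4%). The head-to-head pairs had 46 and 59 of 186 (24.7% and 31.7%), and the pairs reaching in from the 3′ side 23 and 38 of 103 (22.3% and 36.9%). Per length, the antisense locus had the higher mean FPKM in 195 of 1758 pairs untreated, 231 with aristolochic acid and 215 with MYDGF. Among the 407 pairs with both genes tested, these numbers were 66, 64 and 68, so they did not rise with aristolochic acid there. The median log2 ratio of FPKM in the tested pairs was -2.72, -2.83 and -2.70, so most loci stayed well below their partners in all 3 groups.

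At single loci, UCKL1-AS1, RUFY1-AS1 and PYCARD-AS1, the order of the 2 genes in CPM was exchanged with aristolochic acid. UCKL1 fell from 48.9, 47.0 and 46.0 CPM to 17.4, 12.4 and 15.6 CPM with aristolochic acid (log2 fold change -1.64, edgeR adjusted p = 1.58e-05). Per length, UCKL1-AS1 went from 0.118 ± 0.0577 to 17.1 ± 4.85 FPKM and UCKL1 from 10.3 ± 0.367 to 3.35 ± 0.558 FPKM (SD, n = 3), so the antisense locus ended above its partner. RUFY1 fell from 40.3, 42.0 and 35.9 to 5.34, 5.56 and 5.24 CPM (-2.87, adjusted p = 5.44e-06). RUFY1-AS1 went from 0.163 ± 0.129 to 11.2 ± 3.10 FPKM and RUFY1 from 4.21 ± 0.360 to 0.583 ± 0.0195 FPKM. With MYDGF, RUFY1 stood at 10.3, 16.7 and 15.1 CPM, above the aristolochic acid libraries and below the untreated ones. PITRM1 went from 122, 113 and 123 to 64.0, 51.3 and 55.4 CPM (-1.07, adjusted p = 2.04e-05), and in CPM it stayed above PITRM1-AS1.
PYCARD-AS1 (ENSG00000261359, chr16:31201885-31203452, plus strand) is head-to-head with PYCARD, the inflammasome adaptor ASC, and 90.5% of its exonic bases lie over exons of that gene. It rose from 0.238, 0.168 and 0.151 to 4.29, 6.49 and 6.07 CPM (log2 fold change 4.85, adjusted p = 1.58e-05) while PYCARD fell from 2.54, 2.52 and 2.88 to 0.162, 0.155 and 0.184 CPM (-3.92, adjusted p = 0.000189).

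In another group of pairs, partners at low levels in untreated cells rose with aristolochic acid. FGD5-AS1 (ENSG00000225733, chr3:14920347-14948424, minus strand), among the most abundant antisense RNAs here, went from 137, 146 and 144 to 106, 89.8 and 90.3 CPM (log2 fold change -0.57, SE 0.0764, edgeR adjusted p = 0.000199). FGD5, a guanine nucleotide exchange factor known from endothelium, had no count untreated and 1.38, 3.40 and 2.48 CPM with aristolochic acid, at least 30.6-fold higher than the floor of 3 counts. Of the 3 endothelial markers listed, PECAM1 had means of 0.584 and 7.92 CPM in these groups, VWF 0.0252 and 0.608 and CDH5 0.480 and 0.702, and their part in the result was not tested.
MMP25-AS1 (ENSG00000261971, chr16:3037400-3059370, minus strand), antisense to a membrane-bound matrix metalloproteinase gene, went from 13.1, 11.0 and 10.5 to 3.40, 1.62 and 2.02 CPM (-2.29, adjusted p = 0.000204). MMP25 went from 0.238, 0 and 0.303 to 6.64, 23.0 and 15.5 CPM (6.27, adjusted p = 0.000123). DNAH17-AS1 (ENSG00000267432, chr17:78484882-78503056, plus strand) went from 6.02, 4.61 and 4.46 to 0.972, 1.31 and 0.736 CPM (-2.30) and DNAH17, an axonemal dynein heavy chain gene, from 0.396, 0.839 and 1.29 to 19.2, 24.3 and 21.6 CPM (4.67). TM4SF19-AS1 fell by 2.24 and TM4SF19 rose by 3.40 (adjusted p = 0.00175 and 0.00570). TTN-AS1 rose by 0.72 (adjusted p = 0.00626), while titin (TTN) went from 2 counts to 2.27, 4.4 and 5.52 CPM, a ratio of 75.7 (95% interval 20.6 to 631). PCF11 rose by 0.82 and TNS2 by 1.29 (adjusted p = 6.02e-05 and 0.00300), opposite to their antisense loci.

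**Figure D5:**
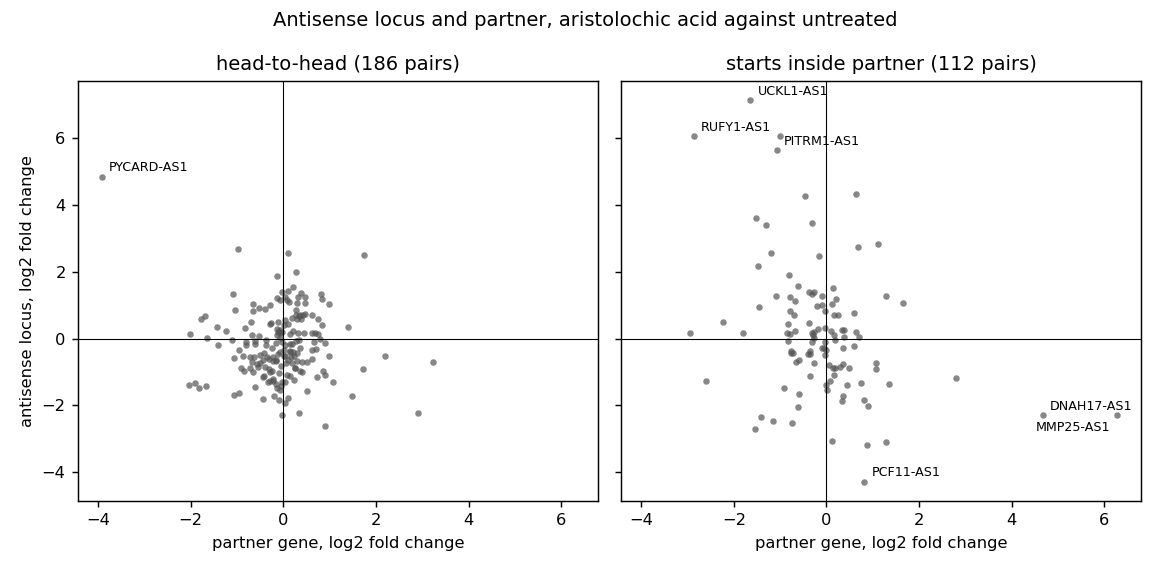
Log2 fold change with aristolochic acid against untreated cells of the antisense locus (vertical) and of its partner (horizontal) for head-to-head pairs (left, 186) and pairs in which the locus starts inside the partner (right, 112); each point is 1 pair with both genes tested. UCKL1-AS1, RUFY1-AS1 and PITRM1-AS1 lie at the upper left and MMP25-AS1 and DNAH17-AS1 at the lower right, and r is -0.10 and -0.34.

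Of 30 antisense RNAs studied under their own names, 28 were in the table. HIF1A-AS3 (ENSG00000258667, chr14:61707298-61751163, minus strand), within the hypoxia factor locus, stood at 1.51, 1.93 and 1.97 CPM untreated, 24.6, 35.2 and 28.6 in the aristolochic acid group and 27.0, 18.8 and 22.7 with MYDGF. It rose by 4.03 on the log2 scale (SE 0.211, edgeR adjusted p = 3.83e-06), while HIF1A mRNA had a log2 fold change of 0.00 (adjusted p = 0.979). No exonic base of this locus lies over an exon of the other strand. HIF1A-AS1 was too low for the test.
CDKN2B-AS1 (ENSG00000240498, chr9:21994139-22128103, plus strand), known as ANRIL and studied for repression of the INK4 genes, stood at 7.29, 6.96 and 8.02, 12.6, 13.5 and 11.9 and 19.8, 15.1 and 19.7 CPM in the 3 groups, which did not overlap. It rose by 0.77 with aristolochic acid (adjusted p = 0.00107) and its neighbour CDKN2B, a cyclin-dependent kinase inhibitor, by 0.64 (adjusted p = 0.000534).
MCM3AP-AS1 fell from 10.6, 13.8 and 11.8 to 4.13, 5.49 and 4.97 CPM (-1.31, adjusted p = 0.000194), LOXL1-AS1 from 4.83, 4.19 and 7.26 to 2.91, 2.78 and 3.13 (-0.89, 0.00747) and TMPO-AS1 from 26.6, 19.4 and 20.7 to 16.9, 11.6 and 12.0 (-0.72, 0.00521). HOXA-AS2 fell by 0.66 (adjusted p = 0.0324), a call lost without untreated 1 or 3 or aristolochic acid 4 or 6 (adjusted p = 0.0672 to 0.121).
OIP5-AS1 (ENSG00000247556, chr15:41283990-41309737, plus strand), the most abundant antisense RNA here, stood at 274, 74.0 and 70.1 CPM untreated, 271, 256 and 231 in the aristolochic acid group and 218, 214 and 216 with MYDGF. Untreated 1 was above all aristolochic acid libraries and the other untreated libraries were far below them, so the groups overlapped (log2 fold change 0.86, adjusted p = 0.125). Without untreated 1 the value was 1.8 (adjusted p = 3.51e-05). PSMA3-AS1 (0.09), ITGA9-AS1 (0.05), NNT-AS1 (0.10) and VIM-AS1 (-0.16) did not pass the test. SLC7A11-AS1 had no count in any library, which allows up to 3 counts in each, although SLC7A11, the cystine transporter gene, stood at 69.7, 69.4 and 72.0 CPM untreated and 129.6, 165 and 151 with aristolochic acid.

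With MYDGF, 54 antisense loci were higher and 40 lower than with aristolochic acid alone (edgeR quasi-likelihood test), 11.4% and 8.44% of the 474 tested, beside 14.7% of all tested genes in each direction. The tested loci had a median log2 difference of 0.13, against 0.01 over all genes. Of these, 26 were at least 2-fold higher and 21 at least 2-fold lower, beside 541 and 1172 of the 18267 genes tested. That is a larger share than over all genes for the higher loci and a smaller one for the lower loci. Of the 862 other lncRNA rows tested, 36 were at least 2-fold higher and 70 lower, larger shares than over all genes in both directions. The counts rested on few libraries: 31 higher and 19 lower were left without aristolochic acid 4, 30 higher without aristolochic acid 6, 31 higher and 25 lower without MYDGF 4, and 23 lower without MYDGF 3. Calls over all genes fell as well, from 5379 to 3741 without aristolochic acid 4 and 3773 without aristolochic acid 6. They numbered 3640 without MYDGF 4 and 3504 without MYDGF 3. An effect of MYDGF and one of the adenovirus cannot be told apart. This comparison uses the same aristolochic acid libraries as the one above, so values of a locus in both are given side by side, and no count of loci that moved back is drawn from them.
By position, 21 of 193 head-to-head loci were higher and 10 lower with MYDGF (10.9% and 5.18%, both under the 14.7% of all genes), and the 21 became 10 without aristolochic acid 6 or MYDGF 4 and 13 without aristolochic acid 4 or MYDGF 1. Of the loci starting inside the partner, 13 were higher and 16 lower, 10.2% and 12.6% of 127 (7 and 8 without aristolochic acid 4, 8 higher without aristolochic acid 6 and 7 higher without MYDGF 4), and of those reaching in from the 3′ side 15 and 13 (10.8% and 9.35% of 139). Of the 8 largest falls, 7 lay within 30 kb past an active gene on their strand, and of the 8 largest rises, 1, beside 110 of 472 tested loci (23.3%). These falls include RUFY1-AS1, PITRM1-AS1, FAM83A-AS1 and MTUS2-AS1, which are also among the 8 largest rises with aristolochic acid. The 30 kb window was chosen on those rises and the aristolochic acid libraries are shared, so this is no separate observation.

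L3MBTL2-AS1 (ENSG00000235513, chr22:41207592-41228500, minus strand), which starts 16.3 kb past RANGAP1 and lies antisense to the polycomb-related gene L3MBTL2, was the locus that fell most. Its level was 3.72, 8.35 and 5.24 CPM under aristolochic acid, 0.306, 0.546 and 0.424 with MYDGF and 0.634, 0.168 and 0.0757 untreated. The MYDGF libraries lay below all aristolochic acid libraries and overlapped the untreated ones. The log2 difference from aristolochic acid was -3.74 (SE 0.506, edgeR adjusted p = 0.00157), while L3MBTL2 rose by 0.69 (adjusted p = 0.00233).
FAM83A-AS1 stood at 0.230, 0.156 and 0.707 CPM with MYDGF (log2 difference -3.47, adjusted p = 0.00469, and -4.38 without MYDGF 4). AQP5-AS1 (ENSG00000257588, chr12:49951512-49962924, minus strand), beside an aquaporin gene, had 1.21, 2.32 and 2.02 CPM in the aristolochic acid group and 0.459, 0.0781 and 0.283 with MYDGF (-2.71, adjusted p = 0.00611). PARD6G-AS1 (ENSG00000267270, chr18:80147908-80179839, plus strand), 0.385 kb past ADNP2, went from 3.24, 6.88 and 4.97 to 1.45, 0.781 and 0.848 CPM (-2.28, adjusted p = 0.00278), and its partner, the cell polarity gene PARD6G, rose by 0.65 (adjusted p = 0.00731).
RUFY1-AS1 fell by 2.07 (adjusted p = 0.00282) and RUFY1 rose by 1.38 (adjusted p = 0.00130). LMNTD2-AS1, not called with aristolochic acid, had 1.78, 2.78 and 2.76 CPM with it and 0.766, 0.859 and 0.495 with MYDGF (-1.78, adjusted p = 0.00286). MTUS2-AS1 fell by 1.91 (adjusted p = 0.0123), with 0.0501 without MYDGF 4. PITRM1-AS1 fell by 2.11 (adjusted p = 0.0413), but its groups overlapped and the call was lost on leaving out any library except aristolochic acid 1 (adjusted p = 0.0569 to 0.155, and a difference of -1.46 without aristolochic acid 4). UCKL1-AS1 was lower than with aristolochic acid by 1.45 (adjusted p = 0.00328) and still above untreated cells by 5.69 (adjusted p = 1.00e-05).

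The largest rise with MYDGF was that of PAK6-AS1, and the clearest by its adjusted p among the 8 largest was that of CCDC183-AS1. CCDC183-AS1 (ENSG00000228544, chr9:136803927-136808848, minus strand) stood at 5.47, 5.03 and 5.37 CPM untreated, 2.51, 2.78 and 2.30 in the aristolochic acid group and 9.50, 8.43 and 9.75 with MYDGF, so the MYDGF libraries lay above both other groups. Its log2 difference from aristolochic acid was 1.86 (SE 0.141, edgeR adjusted p = 0.000196). PAK6-AS1 stood at 0.842, 1.41 and 0.777 CPM with MYDGF (2.78, adjusted p = 0.0123, and 3.43 without aristolochic acid 1) and STPG3-AS1 at 1.61, 1.09 and 1.13 CPM (2.32, adjusted p = 0.00234). MELTF-AS1 (ENSG00000228109, chr3:196999460-197004744, plus strand) had 5.86, 4.53 and 6.58 CPM untreated, 0.891, 0.618 and 1.47 in the aristolochic acid group and 3.06, 4.06 and 2.69 with MYDGF (1.73, adjusted p = 0.00500).
EMC1-AS1 had 0.486, 0.155 and 0.460 CPM in the aristolochic acid group and 1.99, 1.09 and 1.41 with MYDGF (2.02, adjusted p = 0.0123). PGM5P3-AS1 had 1.46, 0.927 and 0.920 and 3.60, 3.36 and 3.67 CPM (1.67, adjusted p = 0.00257), above the untreated libraries too. TNS2-AS1 was higher by 1.51 (adjusted p = 0.0309) and CEBPB-AS1, head-to-head with the transcription factor gene CEBPB, by 1.49 (adjusted p = 0.0281). The TNS2-AS1 call was lost without aristolochic acid 1 or 4 or MYDGF 3 or 4 (adjusted p = 0.0718 to 0.107), and the CEBPB-AS1 call without aristolochic acid 4 or 6 or MYDGF 1 or 3 (0.0748 to 0.0901). PAXBP1-AS1 did not pass the test between the treated groups, with 0.459, 0.312 and 0.212 CPM with MYDGF (0.10, adjusted p = 0.919).

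CDKN2B-AS1 and its partner moved apart with MYDGF. The antisense RNA was higher than with aristolochic acid alone by 0.52 (adjusted p = 0.0176), a call lost without aristolochic acid 6 or MYDGF 1 or 4 (adjusted p = 0.0591 to 0.0675). CDKN2B had 68.4, 92.3 and 78.4 CPM under aristolochic acid and 44.6, 46.9 and 46.8 with MYDGF (-0.79, adjusted p = 0.00140). The log2 ratio of the pair rose by 1.29 without overlap. Over all pairs the ratio was higher without overlap in 85 of 407 (20.9%) and lower in 54 (13.3%), beside 23% and 16.8% of the other opposite-strand pairs. The lower count was 83 without aristolochic acid 1 and 65 to 76 without any other library of these groups. Groups without overlap are easier to reach with 1 library fewer, and the shares of the other pairs were not computed anew.
The pairs with the largest shifts toward the antisense locus were MMP25-AS1 (1.21, MMP25 -2.66), PAK6-AS1 (2.78, PAK6 -0.42), TM4SF19-AS1 (1.85, TM4SF19 -1.97), TNS2-AS1 (1.51, TNS2 -2.17) and AGAP2-AS1 (1.01, AGAP2 -2.06), each value a log2 difference from aristolochic acid. AGAP2-AS1 did not pass the test (adjusted p = 0.433), and its libraries were far apart, with 12.7, 0.671 and 11.3 CPM untreated and 0.243, 4.71 and 4.60 CPM under aristolochic acid. The MMP25-AS1 call was lost without aristolochic acid 4 or 6 or MYDGF 3 or 4 (adjusted p = 0.0624 to 0.0667), and the TM4SF19-AS1 call without aristolochic acid 4 or MYDGF 3 (0.0562 to 0.0581).

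Against untreated cells, the MYDGF group had 119 antisense loci higher and 94 lower (25.1% and 19.8% of 474), beside 26.8% and 24.3% of all tested genes. Of the loci named above, THAP9-AS1 (0.98), HIF1A-AS3 (3.66), IDI2-AS1 (4.81) and CDKN2B-AS1 (1.29) were higher than in untreated cells, and PAXBP1-AS1 (-3.04) and FGD5-AS1 (-0.66) were lower (edgeR adjusted p from 5.15e-06 to 0.000167).

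The machinery that clears antisense and promoter RNAs was read from a list of 24 genes of the nuclear exosome, its adaptors and the exonuclease XRN2, all of which were tested. With aristolochic acid 9 were higher and 4 lower (edgeR; 37.5% and 16.7%, beside 29.7% and 29.3% of all tested genes), with a median log2 fold change of 0.23 beside -0.01 over all genes. The core subunit gene EXOSC5 rose by 1.14 (adjusted p = 0.000121) and EXOSC2 by 0.68 (0.00343). The catalytic subunit gene DIS3 rose by 0.60 (0.000913) and ZCCHC8, part of the adaptor of nucleoplasmic targets, by 0.94 (0.000330). ZFC3H1, which links poly(A) tails to the exosome, fell by 0.81 (2.94e-05), the cap-binding subunit gene NCBP2 fell by 0.69 (0.000754) and XRN2 by 0.20 (0.0144). The helicase gene MTREX rose by 0.31 (0.0118). With MYDGF against aristolochic acid, ZFC3H1 was higher by 0.31 (0.0136). The adaptor genes RBM7 (-0.53), C1D (-0.50), ZCCHC8 (-0.45) and MTREX (-0.33) were lower, and the median over the list was -0.14. These are mRNA levels, and their part in the levels of antisense loci was not tested.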

How the data were processed

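RNA of 9 HK-2 libraries was measured by RNA-seq. The deposited table gives, per the file headers, a raw count and an FPKM value per gene and library, and each FPKM divides the count by gene length and library depth. The submitters' processing notes name CASAVA 1.8, HISAT2, SAMtools 1.3.1, edgeR and the build mm10, although the table lists human Ensembl IDs on GRCh38. The counting tool and its strand setting are not stated in the labels or notes used here. Strand and exons came from GENCODE 29, which held 1768 of the 1777 loci. Counts were tested with edgeR 4.0.16 in R 4.3.3 (TMM scaling, filterByExpr with a minimum count of 10 and a minimum total of 15, quasi-likelihood test, 9 libraries in 1 fit, 6 residual degrees of freedom). Over 18267 genes tested, p-values were adjusted by Benjamini-Hochberg, and the biological coefficient of variation was 16.4%. The table was not filtered otherwise. CPM values are counts per 1000000 scaled with TMM, FPKM values serve comparisons between genes, and ratios used a pseudocount of 0.1 CPM. Intervals cover counting error only.

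Loci named in the text are the 8 largest rises and 8 largest falls per comparison among called loci with a mean of at least 1 CPM in the higher group, the 3 most abundant loci per position class, the 5 pairs with the highest and the 5 with the lowest difference between antisense locus and partner, and 30 antisense RNAs studied under their own names. Of these, 1 locus is not reported here. The members and lists were chosen with earlier results of these data known. Alternatives were DESeq2 1.42.0, DESeq2 size factors, no filter on low counts, only the 2 groups compared, a replicate block, other windows and thresholds, a pseudocount of 0.5 CPM and leaving out each library. The fit was checked on simulated counts.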

Additional observations from a re-analysis of the deposited data

How the results depend on the processing

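No named result that passed the test changed direction under any alternative run. Of 2549 values of named loci under an alternative, 2376 kept their side of the threshold, 150 lost a call and 23 gained one. The replicate numbers do not pair the libraries (correlations of same-numbered libraries -0.16 to 0.02), and a replicate block leaves 2 residual degrees of freedom. With the block, the calls over all loci (higher, lower) were 50 and 52 for aristolochic acid against untreated, 0 and 0 for MYDGF against aristolochic acid, and 63 and 44 for MYDGF against untreated. Over all 18267 genes tested it left 5062, 14 and 5446 calls in these comparisons, in place of 10779, 5379 and 9329. The loss was thus one over the whole table and not particular to antisense loci. In the same order the block gave 16 and 19, 0 and 0, and 23 and 18 for head-to-head loci. It gave 17 and 16, 0 and 0, and 17 and 15 for loci starting inside the partner, and 3 and 2, 0 and 0, and 3 and 3 for the exosome list. Where the block left no call, 52 loci were higher and 33 lower at an unadjusted p under 0.05 (edgeR), and DESeq2 without a block called 39 and 43. Over loci starting inside the partner, rises with aristolochic acid numbered 67 with DESeq2 and 71 without a filter, and rises with MYDGF 8 in a fit of only the 2 groups. That fit also left 2 exosome genes lower with aristolochic acid. Head-to-head rises numbered 24 with starts within 1 kb. Near-silent loci passed the filter only through a treated group, so the shares called among them depend on it and are no result. The share of near-silent loci downstream of an active gene that rose was 3.25%, and it was 8.45% with a window of 20 kb, 14.6% with DESeq2 and 17.5% without a filter. At other positions it was 1.63% under a limit of 0.5 CPM, 2.05% with DESeq2 and 2.29% without a filter. Leaving out 1 library in turn gave 30 to 59 loci higher and 19 to 56 lower with MYDGF against aristolochic acid. For head-to-head loci it gave 10 to 26 higher, for loci starting inside the partner 7 to 13 higher and 8 to 24 lower, and for pair ratios 65 to 83 lower. For the exosome list it gave 2 to 4 lower with aristolochic acid, 0 to 1 higher and 2 to 6 lower with MYDGF against aristolochic acid, and 5 to 9 higher with MYDGF against untreated. The near-silent downstream share ran from 3.25 to 7.14%. The causes of these shifts were not tested. With 3 libraries a group and 10876572 to 14254786 counts each, 1303 of the loci were below the filter and were not tested, while without a filter 167 loci in all rose with aristolochic acid in place of 117.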

Other observations

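The table also holds 2889 rows that its description column calls antisense but that carry no antisense symbol, of which 367 were tested. With aristolochic acid 155 of these were higher and 71 lower (42.2% and 19.3% of the tested rows, median log2 fold change 0.44, edgeR), beside 24.7% and 28.5% of the named antisense loci. With MYDGF against aristolochic acid 23 were higher and 70 lower (6.27% and 19.1%, median -0.17). The difference between named and unnamed rows was not tested.

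Of 1205 tested partner genes, 322 were higher and 417 lower with aristolochic acid (26.7% and 34.6%, beside 29.7% and 29.3% of all tested genes), with a median log2 fold change of -0.08 against -0.01.

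Of antisense loci in HOX clusters and other loci without a partner in the table, 0 of 7 tested were called higher and 4 lower with aristolochic acid (edgeR, and 0 higher at an unadjusted p under 0.05), while DESeq2 called 1 higher and 2 lower of 16. Over all tested genes 29.7% were called higher and 29.3% lower (edgeR), and 7 loci are too few to set against these shares. Their summed level was 19.8 to 24.2 CPM untreated, 11.9 to 16.4 in the aristolochic acid group and 19.8 to 20.1 in the MYDGF group, so the aristolochic acid libraries lay below both other groups.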
